A study of Homo sapiens with 63 samples.

Results

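Proteasome subunit mRNAs were taken as the genes whose symbol was PSMA, PSMB, PSMC or PSMD followed by a number. There were 34 of them among 11074 gene rows, and they comprised 7 alpha and 8 beta subunits of the 20S core, 6 ATPases and 13 non-ATPase members. All 34 passed the filter on low values, and none was at 0 in any fraction. HEK293, a human embryonic kidney line, was kept without serum for 2 h, kept without amino acids for 1 h in Earle's salts with vitamins, serum and antibiotics, or left growing in log phase in serum-containing DMEM. Cells of all 3 conditions were treated with cycloheximide, which holds ribosomes on mRNA, and were lysed with a mild detergent in its presence. Poly(A) RNA was sequenced from fractions 3 to 22 of 1 gradient per condition, so differences could not be set against replicates and carry no p-value. Nothing in the labels gives the heavier end of the gradient, so positions are described by fraction number alone.

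The proteasome degrades proteins tagged with ubiquitin. Its barrel-shaped 20S core is built from rings of alpha (PSMA) subunits, which gate the entrance, and rings of beta (PSMB) subunits, some of which carry the protease sites. The regulatory particle caps the core: its ATPases (PSMC) unfold the substrate and its non-ATPase members (PSMD) bind and remove ubiquitin. Translation of many mRNAs for ribosomal proteins and elongation factors depends on growth signals through a pyrimidine run at the 5′ end of the transcript.

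The 5′ ends of the members that the results turn on are shown first, with those of a ribosomal protein mRNA (RPS6) and an elongation factor mRNA (EEF1A1) beside them. Each window holds 15 bases before and 15 bases from the annotated transcription start, and capitals mark the longest run of C or T in it. The sequences come from RefSeq on GRCh38.p14. PSMB4, PSMD7 and PSMB2 carry the position results below, and PSMA4, PSMB5 and PSMD6 are the other members with a run of 8 bases. Of PSMA4's 3 annotated starts and PSMB5's 2, 1 each is shown. The starts of PSMA4 not shown had longest runs of 2 and 3 bases, and that of PSMB5 had 8.
PSMB4, chr1:151399558-151399587, plus strand: gctttcaTTTTTTCTgctaccgtgactaag
PSMD7, chr16:74296799-74296828, plus strand: gagggCTgacgaaccggaagaagaggaact
PSMB2, chr1:35641512-35641541, minus strand: tgcaggcgtcgcgccaaTCTTCgctctgag
PSMA4, chr15:78540390-78540419, plus strand: ggccgtcccgCTCCCCCCgccccaacccag
PSMB5, chr14:23034886-23034915, minus strand: ttctcagaattagTTCTTTCTgcccacact
PSMD6, chr3:64023480-64023509, minus strand: ccgggcgtattcgccgaCTCCTCCCgcttc
RPS6, chr9:19380222-19380251, minus strand: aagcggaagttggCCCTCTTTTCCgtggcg
EEF1A1, chr6:73521018-73521047, minus strand: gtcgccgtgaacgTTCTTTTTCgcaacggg

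A run of at least 8 pyrimidines was found in 4 of the 29 members with an entry (13.8%) and in 18.1% of the 8699 tested genes with one. Each gene was counted by the longest run at any of its annotated starts. The run of PSMB4 ended at the base before its annotated start, whereas those of RPS6 and EEF1A1 spanned theirs. PSMD7 had no run longer than 2 bases in its window. A run in these windows is a description of the letters and does not show where transcripts begin in these cells. PSMA7, PSMB1, PSMB6, PSMB7 and PSMD4 had no entry.

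The deposited value of a gene in a fraction carries a further scale for that fraction whose nature the sources used here do not give, and is called signal. Fraction totals ran between 36830 in fraction 6 and 66981627 in fraction 18, both of the log phase gradient. Fractions 8 to 12 held 45.7% of all signal without serum, 55.0% without amino acids and 12.8% in log phase, and fractions 18 to 22 held 22.4%, 14.6% and 43.8% in the same order. Because these totals enter every position, each position result was also computed with all fractions set to equal totals, and shares within a fraction, which do not depend on its scale, are given beside it. Of the HEK293 markers, the neurofilament genes NEFL and NEFM, VIM, KRT8 and KRT18 were listed in the table with signal in each gradient, while PAX2 and the markers of leukocytes, hepatocytes, fibroblasts and endothelium were not in the table used here.

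As deposited, proteasome subunit mRNAs lay in higher-numbered fractions than the typical mRNA in all 3 gradients. The position of a gene is its mean fraction number weighted by signal. The members' median position was 16.94 without serum, 16.27 without amino acids and 17.98 in log phase. The median of the 10889 tested genes was 15.62, 15.12 and 16.94 in the same order. Thus 30, 29 and 28 of the 34 members lay above the median gene, and with equal fraction totals 31 did so in each gradient. The members' median excess over the median gene was 1.32, 1.15 and 1.04 fractions as deposited and 1.45, 1.45 and 2.57 with equal totals. On log2 signal the members lay below the median gene, with differences of -0.31, -0.27 and -0.44 fraction. That scale flattens a gene's profile across fractions, and does so more for abundant genes. The members' median level, defined below, was 171, 151 and 225 in the same order, against 10.5, 9.21 and 14.4 over all tested genes. The log2 values therefore cannot separate position from abundance.

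**Figure D1:**
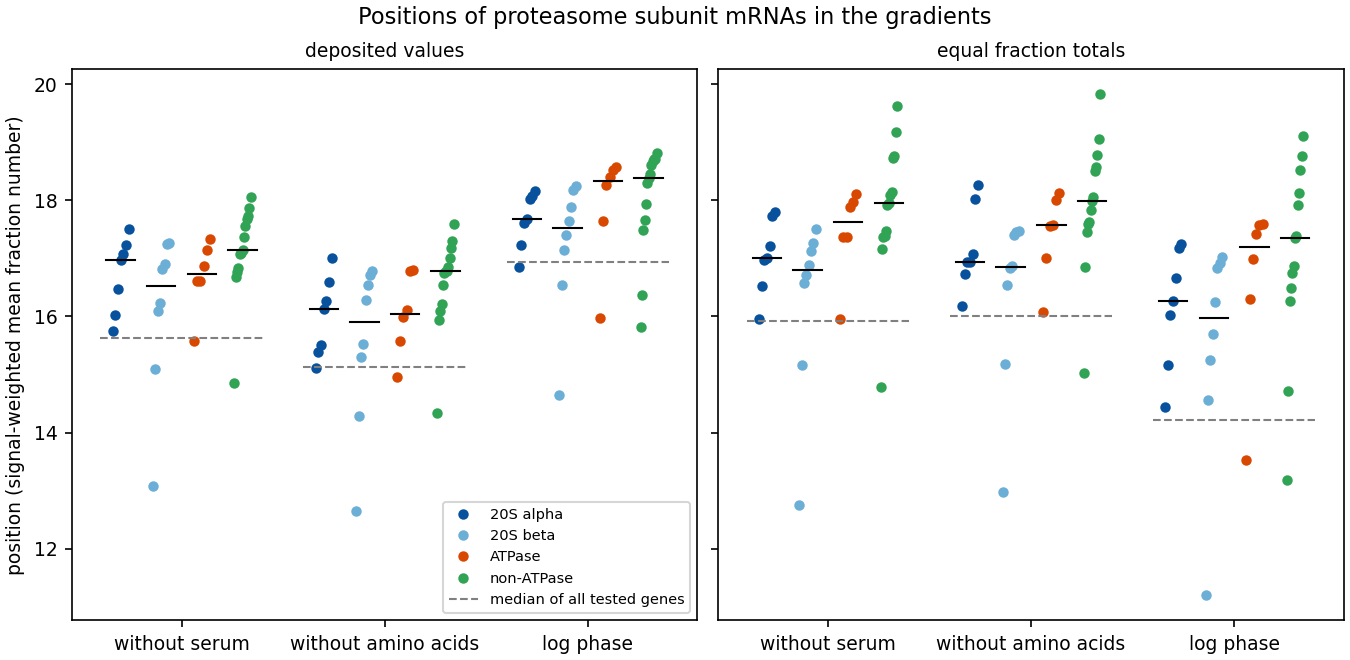
Position of each of the 34 members (points, by subunit class) in the 3 gradients, on the deposited values at left and with equal fraction totals at right; black bars are class medians and dashed lines the median of all tested genes. Most members lie above the dashed line in every gradient, and the lowest point of each gradient is PSMB10.

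The members' share of a fraction, which needs no scale, was higher in fraction 20 than in fraction 8. Together they made up 0.132% of fraction 8 and 1.86% of fraction 20 without serum. They made up 0.135% of fraction 8 and 1.85% of fraction 20 without amino acids. In log phase the same fractions held 0.198% and 1.52%. The share was highest in fraction 20 in each gradient. Averaged over fractions 18 to 22 the members held 1.54% without serum and 1.60% without amino acids, against 1.28% in log phase. Over fractions 8 to 12 they held 0.234% and 0.220%, against 0.324% in log phase. The median gene's share differed in the same directions. On the log2 scale given below its difference was 0.22 without serum and 0.24 without amino acids in fractions 18 to 22. In fractions 8 to 12 it was -0.35 and -0.70. These directions were therefore not particular to the members.

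**Figure D2:**
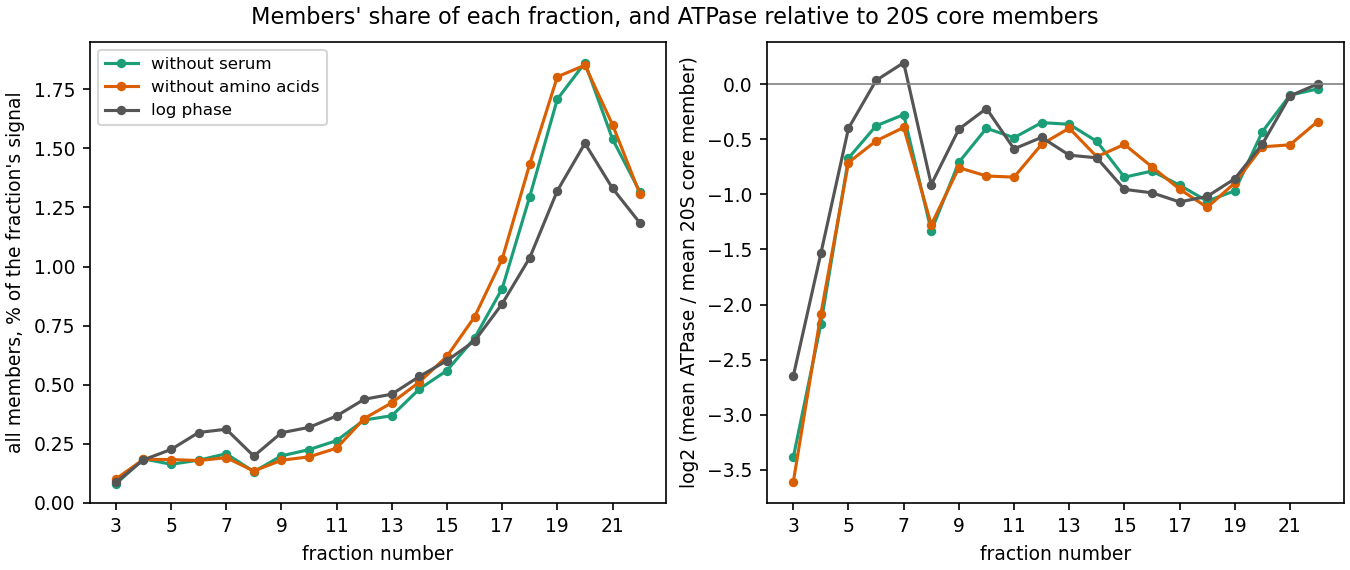
Left, summed signal of the 34 members as a percent of each fraction's total gene signal; right, log2 ratio of the mean ATPase member to the mean 20S core member in each fraction, for the 3 gradients. The share peaks in fraction 20 in all 3 gradients, at 1.86%, 1.85% and 1.52%, and the ratio is lowest in fraction 3 in all 3.

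Members of each class differed in position on the deposited values. Among the alpha subunits, the log phase position was highest for PSMA3 (18.15) and lowest for PSMA1 (16.85). Among the beta subunits it was highest for PSMB4 (18.25) and lowest for PSMB10 (14.64), an inducible catalytic subunit of the immunoproteasome that takes the place of PSMB7. PSMC3 (18.57) and PSMC5 (15.97) marked the ends of the ATPases. PSMD3, a scaffold subunit of the lid, was the highest of all members at 18.81, and PSMD9, a chaperone that helps to assemble the ATPase ring and is not part of the finished particle, was the lowest non-ATPase member at 15.81. PSMD10, another assembly chaperone, lay at 18.45 among the other non-ATPase members. With equal totals the highest log phase positions were those of PSMA2 (17.24), PSMB7 (17.02) and PSMD1 (19.11), against 17.17 for PSMA3, 16.84 for PSMB4 and 18.76 for PSMD3.

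PSMB10, PSMD9 and PSMC5 remained at the low end in the starved gradients. PSMB10 had 46.6% of its signal in fractions 8 to 12 without serum and 54.2% without amino acids, against 29.5% in log phase. The median member had 13.2%, 15.9% and 3.63% there. As a share of each fraction's gene signal, which does not depend on the scale, PSMB10 was lower there, with a mean over these fractions of 26.3 per 1000000 without serum and 27.7 without amino acids, against 70.9 in log phase (log2 ratios of -1.43 and -1.36). PSMD9 lay at 14.86 without serum and 14.33 without amino acids, and PSMC5 at 15.58 and 14.96.

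In log phase the 20S core lay at lower-numbered fractions than the regulatory particle. Core minus ATPase was -0.68 fraction and core minus non-ATPase -0.74 in the class medians, and 0 of the 15 core members lay above either median. Odd- and even-numbered fractions, taken separately to show the spread inside a gradient, gave -0.75 and -0.59 for core minus ATPase and -0.87 and -0.53 for core minus non-ATPase. Under starvation the order depended on the scale. Core minus ATPase was 0.08 without serum and 0.08 without amino acids as deposited, and -0.65 and -0.63 with equal totals, against -0.68 and -0.96 in log phase on the same scales. Core minus non-ATPase was negative on both, at -0.34 and -0.66 as deposited and -0.98 and -1.05 with equal totals.

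The balance of classes also changed along each gradient, which can be read without a scale. The log2 ratio of the mean ATPase to the mean core member was -1.06 in fraction 18 and -0.04 in fraction 22 without serum. It was -1.12 and -0.34 in these fractions without amino acids, and -1.02 and 0.00 in log phase. ATPase mRNAs thus gained on core mRNAs between fractions 18 and 22 of all 3 gradients. The ratio was not steady along the gradient. In fraction 7 it was already -0.28 without serum, -0.39 without amino acids and 0.20 in log phase. In fraction 3 the ratio was -3.39 without serum, -3.61 without amino acids and -2.65 in log phase.

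As deposited, most members were inside the size rule given here when serum or amino acids were removed, as were most tested genes. Without serum 5.7% of all tested genes were higher by it and 9.86% lower, and without amino acids 6.84% and 9.57%. With equal totals more members were past it, as given below. A shift is the difference in position between gradients minus its median over all tested genes, and that median was -1.35 fractions without serum and -1.80 without amino acids. Before this centring, 32 of 34 members lay in lower-numbered fractions without serum than in log phase, and 33 of 34 did so without amino acids. The same held for most genes: 210 of the 10889 tested lay in higher-numbered fractions without serum than in log phase, and 91 without amino acids. With equal totals the members' median difference was 0.67 fraction toward higher numbers without serum, against 1.54 over all tested genes. Without amino acids it was 0.85, against 1.72. On that scale the members thus moved less far than the typical gene. The size rule used here is no test: it asks for a shift of 1 fraction or more, and of 0.5 or more in the same direction in the odd and in the even fractions. The 2 starved gradients are compared with the same log phase gradient and are not independent.

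Without serum, the members' median shift was 0.40 (odd 0.29, even 0.44). By the size rule 4 members were higher, where 5.7% of all tested genes were, and 1 was lower, where 9.86% were. Without amino acids the median was 0.24 (odd 0.10, even 0.37), with 4 members higher against 6.84% of all genes and 2 lower against 9.57%. With equal totals the median was -0.87 in both comparisons, with 1 member higher and 11 lower without serum (12.1% and 13.1% of all genes) and 1 higher and 16 lower without amino acids (13.0% and 16.0%). The direction of the members' shared shift therefore rests on the unknown scale of the fractions. Per class, the median shifts without serum and without amino acids were 0.41 and 0.17 for the core, 0.13 and 0.13 for the ATPases, and 0.45 and 0.27 for the non-ATPase members. With equal totals they were -0.53 and -0.50 for the core, -0.996 and -1.14 for the ATPases and -0.90 and -1.01 for the non-ATPase members, so the sign and the order of the classes differ between the scales.

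**Figure D3:**
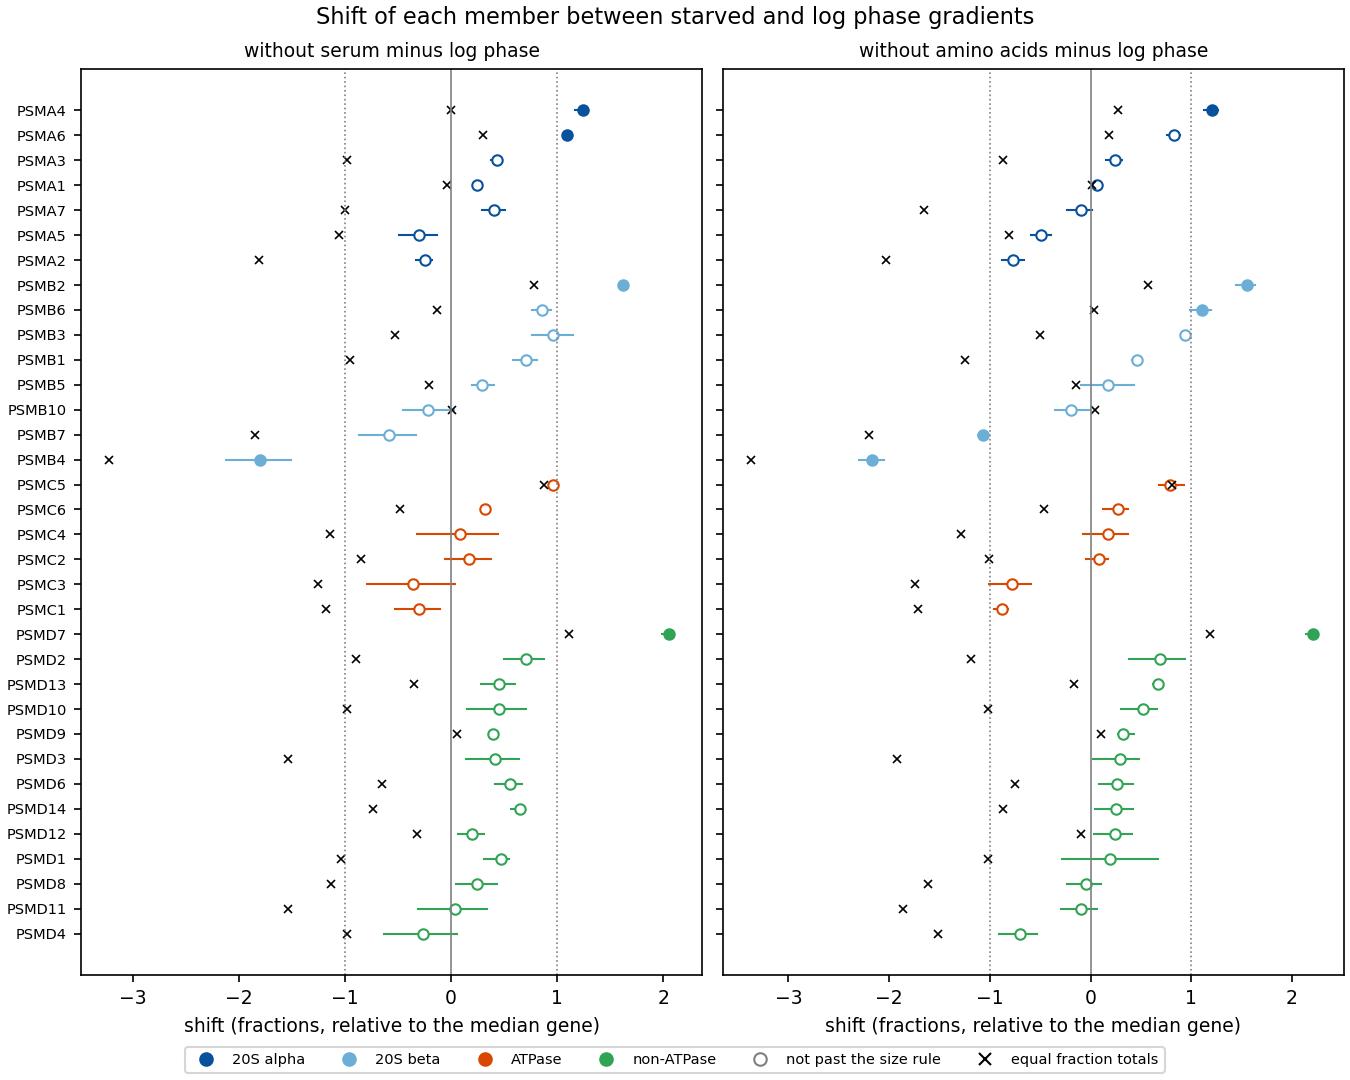
Shift of each member without serum (left) and without amino acids (right) relative to log phase; circles are deposited values (filled where the size rule was met), bars span odd and even fractions, and crosses are equal fraction totals. PSMB4 lies furthest left and PSMD7 furthest right among the circles of both panels, and most crosses lie left of 0.

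Shares within fractions were compared between gradients in the same way. On the scale of log2 (mean share + 1 ppm), where ppm is parts per 1000000 of a fraction's gene signal, the median member in fractions 3 to 7 differed by -0.68 without serum and -0.77 without amino acids from log phase, against -0.94 and -0.98 for the median gene, and 26 of 34 members lay above the median gene in both. In fractions 8 to 12 the median member differed by -0.30 and -0.59, against -0.35 and -0.70 for the median gene. In fractions 18 to 22 it differed by 0.19 and 0.30, against 0.22 and 0.24 for the median gene. There 16 of 34 members lay above the median gene without serum and 19 without amino acids.

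PSMB4, a beta subunit without a protease site of its own, moved to lower-numbered fractions in both starvations. Its share of a fraction had a lowest, median and highest value of 169, 361 and 1259 ppm without serum. These values were 197, 366 and 1330 without amino acids and 74.0, 173 and 1253 in log phase. The highest value was thus alike in the 3 gradients while the median fraction held more PSMB4 in the starved ones.

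Within fractions 8 to 12, PSMB4 made up 289 to 372 ppm without serum and 304 to 376 without amino acids, against 122 to 136 in log phase. These are neighbouring fractions of a single gradient per condition and are not replicates. The log2 ratio of the means, with nothing added, was 1.39 without serum and 1.42 without amino acids, the highest of the 34 members in both, where the median member had -0.31 and -0.62. In fractions 18 to 22 the ratio was 0.10 and 0.16.

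The position of PSMB4 was 15.10 without serum and 14.28 without amino acids, against 18.25 in log phase. Of its signal, 30.1% lay in fractions 8 to 12 without serum and 38.8% without amino acids, against 3.07% in log phase. Its shift was -1.80 without serum (odd -2.12, even -1.51) and -2.17 without amino acids (odd -2.05, even -2.30). It was -3.22 and -3.37 with equal totals, and it met the size rule with any 1 of the 20 fractions left out. RefSeq places the gene on chromosome 1, and its window above has the run of 8 pyrimidines.

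The 3 other members with a run of that length had these values. As deposited, the shifts of PSMA4, PSMB5 and PSMD6 were 1.24, 0.29 and 0.55 without serum and 1.20, 0.17 and 0.27 without amino acids. With equal totals they were -0.01, -0.21 and -0.66 without serum and 0.28, -0.14 and -0.75 without amino acids. Over the 1573 tested genes with such a run the median shift was -0.14 without serum and -0.18 without amino acids, and over the 1521 of them outside the ribosomal protein list it was -0.11 and -0.16.

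PSMD7, a lid subunit that pairs with the deubiquitinase PSMD14, was the opposite case. Its share of a fraction had a lowest, median and highest value of 1.81, 49.1 and 296 ppm without serum and 2.97, 41.1 and 298 without amino acids, against 5.32, 94.9 and 305 in log phase. The highest share stood in fraction 19 of both starved gradients but in fraction 16 in log phase.

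In fractions 18 to 22, PSMD7 made up 150 to 296 ppm without serum and 158 to 298 without amino acids, against 88.8 to 191 in log phase, so the ranges overlapped. The log2 ratios of the means, 0.80 and 0.81, were the highest of the 34 members. In fractions 8 to 12 its ratios, -1.93 and -2.49, were the lowest.

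The position of PSMD7 was 17.08 without serum and 16.79 without amino acids, against 16.38 in log phase, where it lay below the median gene. On the deposited values it was the only member whose position, before centring, was higher-numbered in both starvations. With equal totals the members' median difference before centring was itself toward higher numbers, at 0.67 without serum and 0.85 without amino acids. The shift of PSMD7 was 2.06 (odd 1.99, even 2.10) without serum and 2.21 (odd 2.14, even 2.23) without amino acids. With equal totals it was 1.11 and 1.19, and it met the size rule with any 1 fraction left out.

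**Figure D4:**
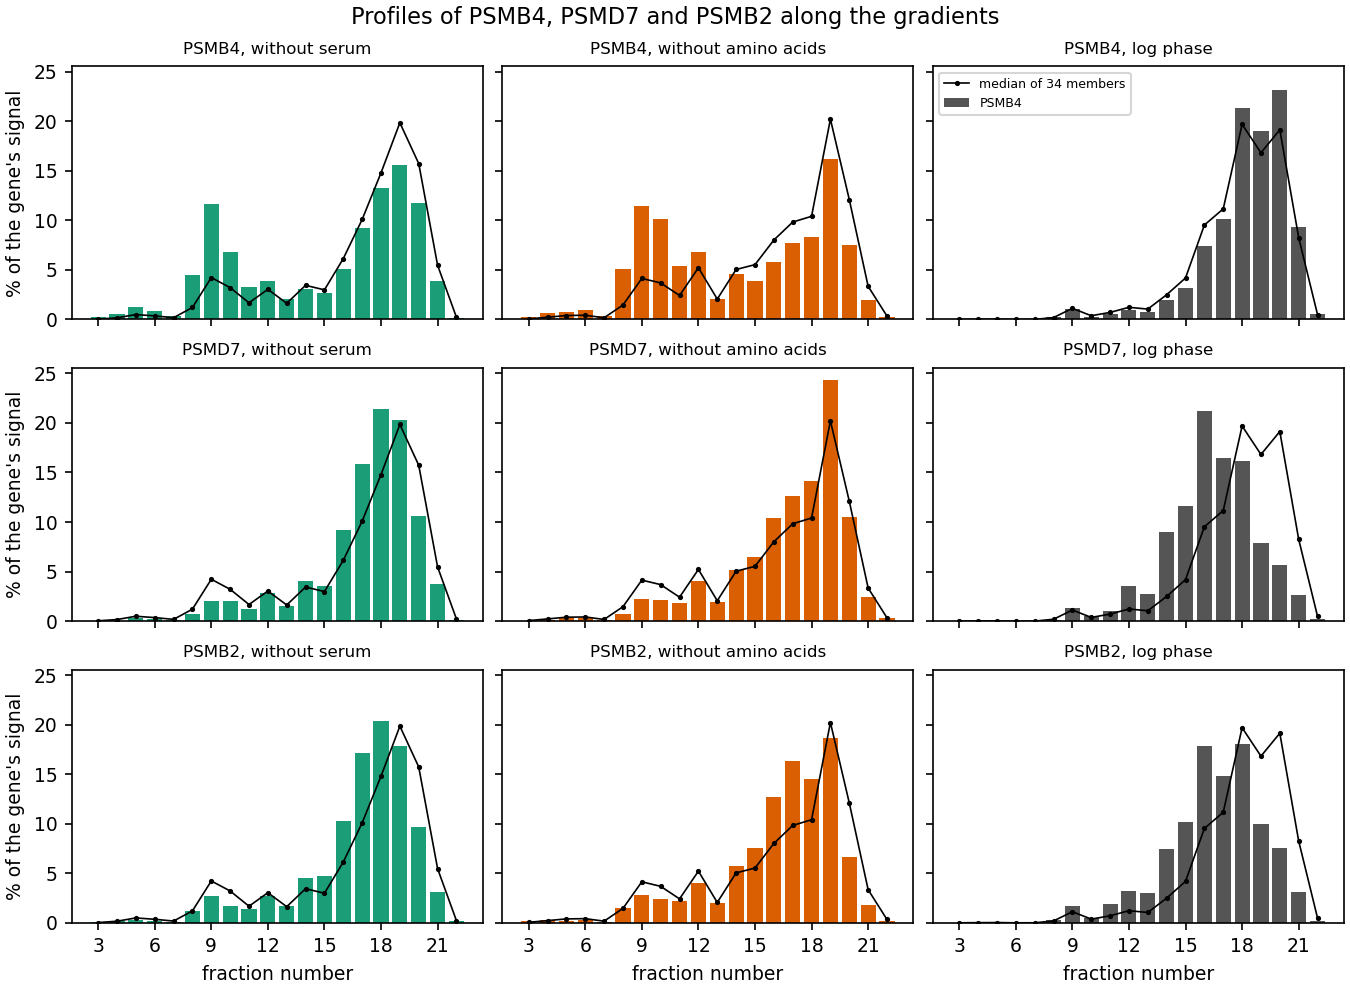
Percent of the gene's signal in each fraction for PSMB4, PSMD7 and PSMB2 (bars) without serum, without amino acids and in log phase, with the median of the 34 members as a line. PSMB4 has 30.1% and 38.8% of its signal in fractions 8 to 12 of the starved gradients and 3.07% in log phase, while PSMD7 and PSMB2 lie left of the line in log phase.

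PSMB2, another beta subunit without a protease site, resembled PSMD7. In fractions 8 to 12 it made up 52.3 to 157 ppm without serum and 50.6 to 135 without amino acids, against 190 to 484 in log phase. Its shift was 1.62 without serum and 1.55 without amino acids, and it met the size rule with any 1 fraction left out but, at 0.78 and 0.57, not with equal totals. Before centring, its position as deposited differed by 0.27 without serum and by -0.25 without amino acids.

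The other calls lay close to the threshold or depended on single fractions or on the scale. PSMA4 had shifts of 1.24 and 1.20, and the second, without amino acids, was under 1 without fraction 20 (0.93) or 21 (0.98). PSMA6 (1.10 without serum) was under the threshold without fraction 8, 9, 10 or 19. PSMB6, which carries the caspase-like site, had 1.11 without amino acids and 0.93 without fraction 19. PSMB7, which carries the trypsin-like site, had -1.07 without amino acids, and between -0.97 and -0.79 without fraction 9, 10, 11 or 12. With equal totals PSMA4, PSMA6 and PSMB6 lay at -0.01, 0.30 and 0.03 in these comparisons (PSMA4 without serum), and PSMB7 at -2.20.

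Among the members outside the size rule as deposited, the ends of the classes on that scale were as follows. PSMA5 had the lowest alpha shift without serum (-0.30) and PSMA2 without amino acids (-0.77). With equal totals PSMA5 had -1.05 without serum, and PSMA2 had -1.81 without serum and -2.03 without amino acids. These 3 values met the size rule as lower. Of the ATPases, PSMC5 was highest in both comparisons (0.96 and 0.79), PSMC3 was lowest without serum (-0.36) and PSMC1 without amino acids (-0.88). PSMD4, a ubiquitin receptor, was the lowest non-ATPase member in both (-0.27 and -0.70). PSMB5, which carries the chymotrypsin-like site, had 0.29 and 0.17.

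The 2 starvations differed little from each other. Without amino acids minus without serum, the median shift of the members was -0.13 (odd -0.09, even -0.22). No member met the size rule in either direction, where 2.01% of all tested genes were higher and 1.06% lower; with equal totals the count was again 0 both ways, against 2.49% and 2.94%. The range ran between -0.56 for PSMC1 and 0.27 for PSMB6, with PSMA2 at -0.50 and PSMD4 at -0.41.

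The summed level of the members over the gradient differed little from that of other genes. The level is a gene's summed signal as parts in 1000000 of all gene signal in that gradient, and its log2 difference was centred on the median gene. The members' median difference was -0.13 without serum (odd -0.07, even -0.14) and -0.24 without amino acids (odd -0.11, even -0.31), and 0.17 and 0.20 with equal totals. In these summed gradient fractions of bulk lysates, fewer cells with an mRNA and less of it per cell cannot be told apart. No member met the level rule of 1 on the log2 scale with 0.5 in odd and even fractions. Without serum 3.05% of genes were higher and 0.903% lower by that rule, without amino acids 4.96% and 2.83%. Without amino acids minus without serum, the members' median was -0.06, again with no member past the rule, against 0.187% of genes higher and 0.0401% lower.

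Within the members, the non-ATPase genes had medians of -0.30 and -0.53, the ATPases -0.05 and -0.19, and the core -0.08 and -0.09. The lowest value of any member was that of PSMD7 without amino acids, -0.86, beside -0.54 without serum. PSMD4 had 0.59 and 0.60, the highest in both. PSMB4 had 0.37 and 0.45. PSMA4 had -0.61 and -0.69, and PSMD14, the deubiquitinase of the lid, -0.64 and -0.70. With equal totals the non-ATPase medians were 0.12 and 0.10, so their sign also rests on the scale.

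**Figure D5:**
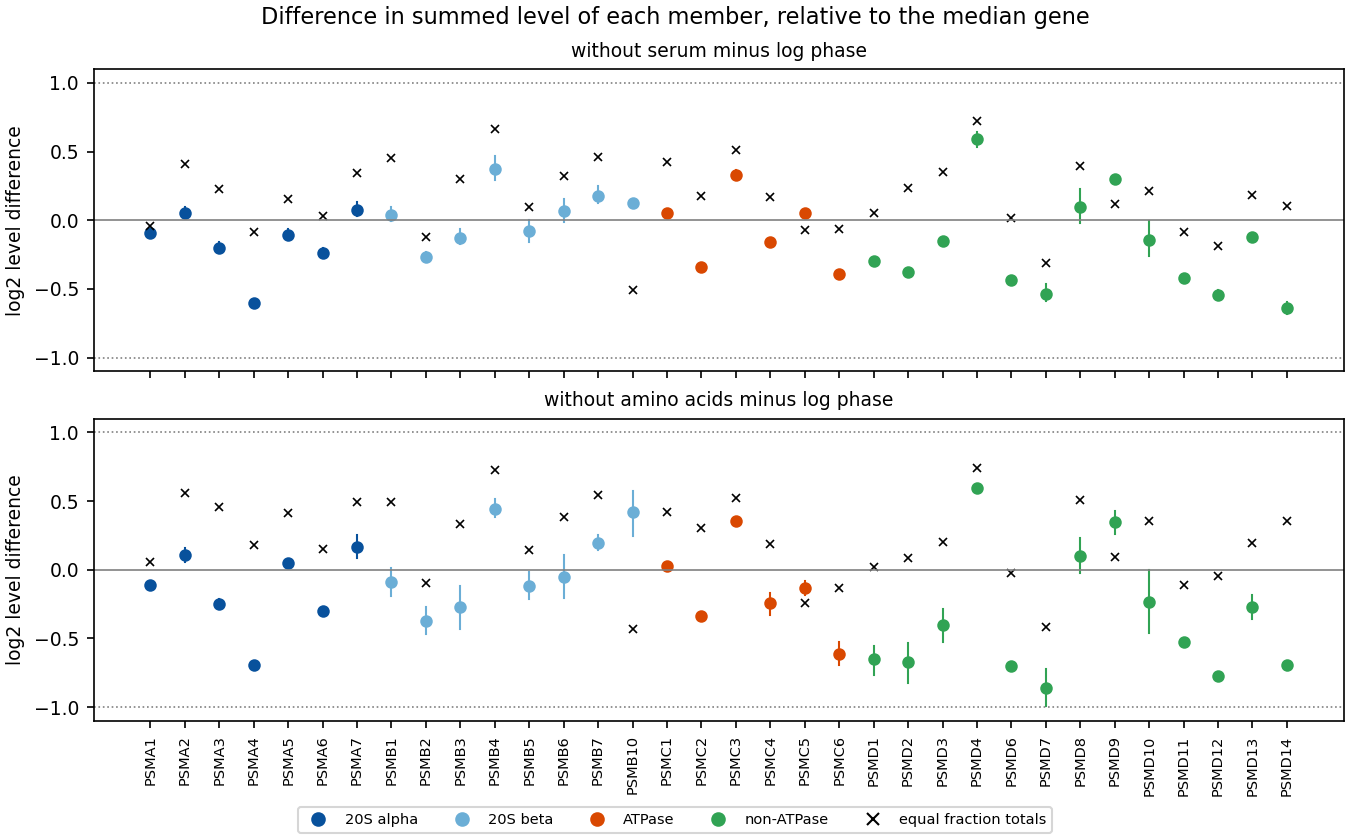
Log2 difference in summed level of each member relative to the median gene, without serum (top) and without amino acids (bottom) minus log phase; circles are deposited values by class, bars span odd and even fractions, and crosses are equal fraction totals. All circles lie within the dotted lines at 1 and -1, and PSMD7 is the lowest without amino acids at -0.86.

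In log phase the level was highest for PSMB1 (684 per 1000000) and lowest for PSMB10 (30.6). The most and least abundant members of the other classes were PSMA4 (475) and PSMA3 (156), PSMC1 (368) and PSMC6 (119), and PSMD8 (406) and PSMD10 (40.5). The table's name gives a unit that is divided by transcript length, and comparisons between genes hold only as far as that name does.

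Other genes of the ubiquitin-proteasome pathway were mostly inside the size rule as well. Of 38 tested, 2 were higher and 4 lower without serum, beside 5.7% and 9.86% of all tested genes, and 1 was higher and 5 lower without amino acids, beside 6.84% and 9.57%. PSME3, an alternative activator of the core, was higher in both (1.42 and 1.84), and TXNL1, a thioredoxin that binds the regulatory particle, without serum (1.06). With equal totals PSME3 had 0.42 and 0.81, and TXNL1 had -0.09 without serum. UBQLN2, which carries ubiquitinated proteins to the proteasome, was lower at -1.96 without serum and -1.54 without amino acids, but lay at 0.16 with equal totals without amino acids. UFD1, a cofactor of the unfoldase VCP, was lower without amino acids (-1.02).

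The lowest shift of the pathway was that of RPS27A (-2.84 and -2.77), which encodes ubiquitin fused to a ribosomal protein. UBB, a polyubiquitin gene, had 0.77 without serum and 0.70 without amino acids. The 81 ribosomal protein mRNAs, RPS27A included, had median shifts of -3.01 and -3.10 with 78 and 77 lower. The 8 mRNAs of the TRiC/CCT chaperonin had -0.70 and -0.96 with 3 and 4 lower. Of all tested genes, 9.86% and 9.57% were lower. With equal totals the ribosomal protein mRNAs had -2.76 and -3.01 with 76 and 77 lower. TRiC/CCT mRNAs then had -1.72 and -1.97 with 7 and 8 lower, beside 13.1% and 16.0% of all genes. The proteasome members were also negative on that scale, at -0.87 in both.

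In level, DDI2, the protease that activates the transcription factor NFE2L1, was lower in both starvations as deposited (-1.13 and -1.26). Its level was 3.52 without serum and 2.72 without amino acids, under the minimum of 5, against 12.3 in log phase. The log phase value alone met that minimum. USP14, a deubiquitinase of the proteasome, and UBQLN1 were lower without amino acids (-1.14 and -1.04), and the assembly chaperone PSMG4 was higher (1.05). The values of USP14, UBQLN1 and PSMG4 lay close to the threshold of the level rule. Of all genes, 0.903% were lower by that rule without serum, and 2.83% were lower and 4.96% higher without amino acids. These calls rest on the deposited values, and with equal totals the members' median level difference changed sign. NFE2L1 itself, which drives proteasome genes when degradation fails, had 0.12 and -0.23.

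Promoters of 300 bases held TGACNNNGC, the core of the element to which NFE2L1 binds, on either strand in 8 of 29 members (27.6%) and in 19.6% of the tested genes with an entry. CCAAT was found on either strand in 16 of 29 members (55.2%) and in 44.0% of those genes. PSMB4 had neither, and PSMD7 and PSMB2 had CCAAT only.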

How the data were processed

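The deposited signal is the authors' table, in which each gene symbol has a value for every fraction. Reads were handled with kallisto 0.44.0 and sleuth 0.29.0 on hg38, per the submitters' processing notes. The sources used here give neither depth nor the scale of a fraction, so values carry no counting error. The 3 lysate samples were not analysed here. All 60 columns used matched the title of 1 sample. Of 11104 rows, 29 ERCC and 1 luciferase spike-in were set aside. Genes were tested where signal averaged at least 5 in every gradient and was not 0 in at least 15 of 20 fractions. Levels used a pseudocount of 1 and a minimum of 5 per 1000000 in either gradient. Alternatives were equal fraction totals, spike-in scaling, log2 signal, other filters, thresholds and centring, and each fraction left out in turn. The calling of shifts was run on simulated gradients, all built from the log phase profiles with some genes moved by a known amount. They held no difference in fraction scale between gradients, so the simulation cannot check calls against that scale. Members past the size rules, the ends of each class in position, shift and level, and non-constitutive members and chaperones were named. Members, lists and tests were chosen with earlier results of these data known. Coordinates are RefSeq's on GRCh38.p14. Computations used Python 3.11.15, pandas 2.3.3, NumPy 2.4.6 and matplotlib 3.10.9. Some genes of the pathway list are counted but not reported here by name.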

Additional observations from a re-analysis of the deposited data

How the results depend on the processing

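The members' median excess over the median gene, by position, was 1.32 without serum, 1.15 without amino acids and 1.04 in log phase. With equal totals the last 2 of these were 1.45 and 2.57. Spike-in scaling gave 1.27 and 1.39 for them. With log2 signal, where position also depends on a gene's abundance, all 3 were negative at -0.31, -0.27 and -0.44. Without 1 fraction they ranged between 1.20 and 1.52, 1.01 and 1.32, and 0.89 and 1.27 in the same order of gradients.

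Core minus ATPase was -0.65, -0.63 and -0.96 with equal totals, -0.43, -0.40 and -0.85 scaled on the spike-ins and -0.23, -0.28 and -0.39 with log2 signal, in the order without serum, without amino acids and log phase. Without 1 fraction it ranged between -0.18 and 0.44, -0.17 and 0.35, and -0.86 and -0.56. Core minus non-ATPase was -0.98, -1.05 and -1.11 with equal totals, -0.82 and -0.92 in the starved gradients with spike-in scaling, and -0.52 without serum with log2 signal. Without 1 fraction it ranged between -0.54 and -0.17, -0.80 and -0.30, and -0.94 and -0.48.

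The median shift against log phase was reversed without serum with equal totals (-0.87) and without centring (-0.95), and was 0.10 with spike-in scaling and 0.0486 with log2 signal. Without amino acids it was -0.87 with equal totals and -1.56 without centring. Between the starvations it was -0.60 without centring and 0.0123 with log2 signal. Without 1 fraction these ranged between 0.22 and 0.46, -0.02 and 0.32, and -0.28 and -0.0819. Members higher by the size rule without serum numbered 1 with equal totals, 0 with log2 signal, 0 without centring and 9 at a threshold of 0.5; without amino acids they numbered 1, 0, 0 and 8. Of all tested genes, 12.1%, 0.129%, 0.00918% and 14.5% were higher without serum under these settings, and 13.0%, 0.119%, 0.00918% and 14.6% without amino acids. Members lower without serum numbered 11 with equal totals, 0 with log2 signal and 16 without centring, beside 13.1%, 0.496% and 69.2% of all genes. Without amino acids they numbered 16, 0 and 28 (16.0%, 0.652% and 86.4% of all genes), with 4 under spike-in scaling (10.0%), 6 at 0.5 (16.3%) and 1 when centred within 10 bins of position (9.51%). Between the starvations 1 member was lower without centring (7.75%). Without 1 fraction, 3 to 6 members were higher and 1 was lower without serum, and 3 to 5 were higher and 1 to 6 lower without amino acids. The shift of PSMA4 without serum was -0.0059 with equal totals. Without centring PSMA4 had -0.11 and -0.60, PSMA6 -0.25 without serum, and PSMB2 -0.25 and PSMB6 -0.69 without amino acids.

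The level difference was reversed with equal totals (0.17 and 0.20), and was 0.0448 between the starvations. Without centring it was -0.56, -0.83 and -0.23, in the order without serum, without amino acids and between the starvations. Dropping the outermost fractions, the filter on low values, a mean signal of 10, the 3 chaperone and non-constitutive members, or using a pseudocount of 5, moved none of these results past its spread between odd and even fractions. The cause of these differences was not tested. One gradient per condition and the unknown scale of the fractions limit every comparison.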
